A study of Mus musculus with 9 samples.

Results

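The 42 collagen genes measured here are those whose symbol in the array annotation has the form Col, a number, a and a number, out of 17097 genes with a probe set annotated to them alone. They were chosen by name and not by any measured value, though with earlier results of these data known. Each gene was represented by its probe set with the highest mean over the 9 arrays. The members comprise 11 fibrillar collagens, the 6 type IV collagens of basement membranes and 25 collagens of other types. The arrays profiled bulk brain tissue of male C57Bl/6J mice, 10 to 12 weeks of age, that received an intrastriatal injection of lipopolysaccharide (LPS, a bacterial cell wall component that evokes acute inflammation) or of vehicle (PBS). A block of the ipsilateral hemisphere around the injection site was taken after saline perfusion, 1 d or 4 d after LPS and 4 d after PBS, to set the early phase of the reaction beside its later phase. Each of the 3 groups had 3 arrays, and each array held RNA pooled from 3 mice, so p-values measure the spread between pools. No PBS array at 1 d was analysed here, and both LPS groups were compared with the same PBS arrays. The difference between LPS at 1 d and PBS therefore cannot be told apart from 1 d against 4 d after surgery, and the 2 comparisons against PBS are not independent.

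Collagens are secreted proteins of 3 chains wound into a triple helix. Fibrillar collagens assemble into the banded fibrils of connective tissue, which in the brain lie mainly in the meninges and around larger vessels. Type IV collagen forms the sheet-like network of basement membranes, which in the brain surrounds endothelial cells and pericytes and underlies astrocyte endfeet, and it is assembled chiefly from the chains encoded by Col4a1 and Col4a2. The remaining types include FACITs (fibril-associated collagens, which coat the surface of fibrils), type VI beaded filaments, short-chain networks, the basement membrane multiplexins and membrane-spanning collagens.

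The 6 genes below carried the differences, and the DNA next to the starts of 5 of them is shown to place the members that moved. Col3a1 (chr1:45311538-45349706 of GRCm38.p6) and Col5a2 (chr1:45374331-45503282) are neighbours, with no other protein-coding gene between them. Col4a1 (chr8:11198423-11312889) and Col4a2 (chr8:11312805-11449287) are transcribed in opposite directions, and their annotated 5′ ends overlap. Col5a3 lies at chr9:20770050-20815117 and Col16a1 at chr4:130047817-130099277. The sequences are RefSeq's, upstream of the annotated gene on its own strand, and capitals mark every match, on either strand, to the TATA box letters TATAAA, to the CCAAT box by its own letters, or to the GC box letters GGGCGG.
Col3a1, chr1:45311288-45311537, plus strand: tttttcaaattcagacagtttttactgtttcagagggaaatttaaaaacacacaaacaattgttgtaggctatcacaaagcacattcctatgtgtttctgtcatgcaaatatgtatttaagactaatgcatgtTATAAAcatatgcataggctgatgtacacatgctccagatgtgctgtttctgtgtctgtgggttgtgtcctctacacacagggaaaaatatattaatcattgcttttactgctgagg
Col5a3, chr9:20815118-20815317, minus strand: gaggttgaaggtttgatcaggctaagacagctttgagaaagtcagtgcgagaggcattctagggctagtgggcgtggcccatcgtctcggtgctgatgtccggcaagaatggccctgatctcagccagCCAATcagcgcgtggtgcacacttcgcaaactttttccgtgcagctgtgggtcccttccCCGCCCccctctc
Col16a1, chr4:130047590-130047816, plus strand: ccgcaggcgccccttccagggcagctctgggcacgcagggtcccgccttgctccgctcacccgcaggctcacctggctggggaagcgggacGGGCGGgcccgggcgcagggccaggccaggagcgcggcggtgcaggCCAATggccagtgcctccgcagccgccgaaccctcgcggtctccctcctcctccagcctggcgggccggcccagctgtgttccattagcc
For Col4a1 and Col4a2 the 22 bases of the plus strand from the start of Col4a2 to the start that the promoter table gives for Col4a1, chr8:11312805-11312826, are shown. Here capitals mark the first base of each, and the 1 GGGCGG match is left in lower case.
Col4a1 and Col4a2: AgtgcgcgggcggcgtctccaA
The stretch before Col3a1 was AT-rich, with 35.2% G and C, against 58.0% for Col5a3 and 75.8% for Col16a1. Over windows of 300 bases around the annotated start, TATAAA was found in 5 of the 33 collagen genes that had a window (15.2%) and in 13.6% of 32851 windows in all. CCAAT was found in 13 (39.4%) against 37.4%, and GGGCGG in 21 (63.6%) against 35.7%. These matches describe letters only, and none of the capitalised matches overlapped another. Col5a2 had no window.

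A minority of the collagens stood above nonspecific signal and moved. A level of 3.49 (log2), the highest mean among 23 nonspecific control probe sets, served as the background level. By this measure 28 of the 42 genes exceeded background in at least 1 group, namely 8 of 11 fibrillar, 3 of 6 type IV, 6 of 9 FACIT, 4 of 5 type VI, 2 of 3 short-chain, 2 of 4 transmembrane and 1 of 2 multiplexin genes, besides Col7a1 and Col26a1. The other 14 lay at or below it in every group, so a difference in them was not measurable. Across the 3 groups 6 of the 42 differed by limma's moderated F-test at an adjusted p under 0.05, whereas 7.67% of all genes did. They were the type IV genes Col4a1 and Col4a2, the fibrillar genes Col3a1, Col5a2 and Col5a3, and the FACIT gene Col16a1. A call in a pairwise comparison below further required a fold change of at least 1.5.

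**Figure D1:**
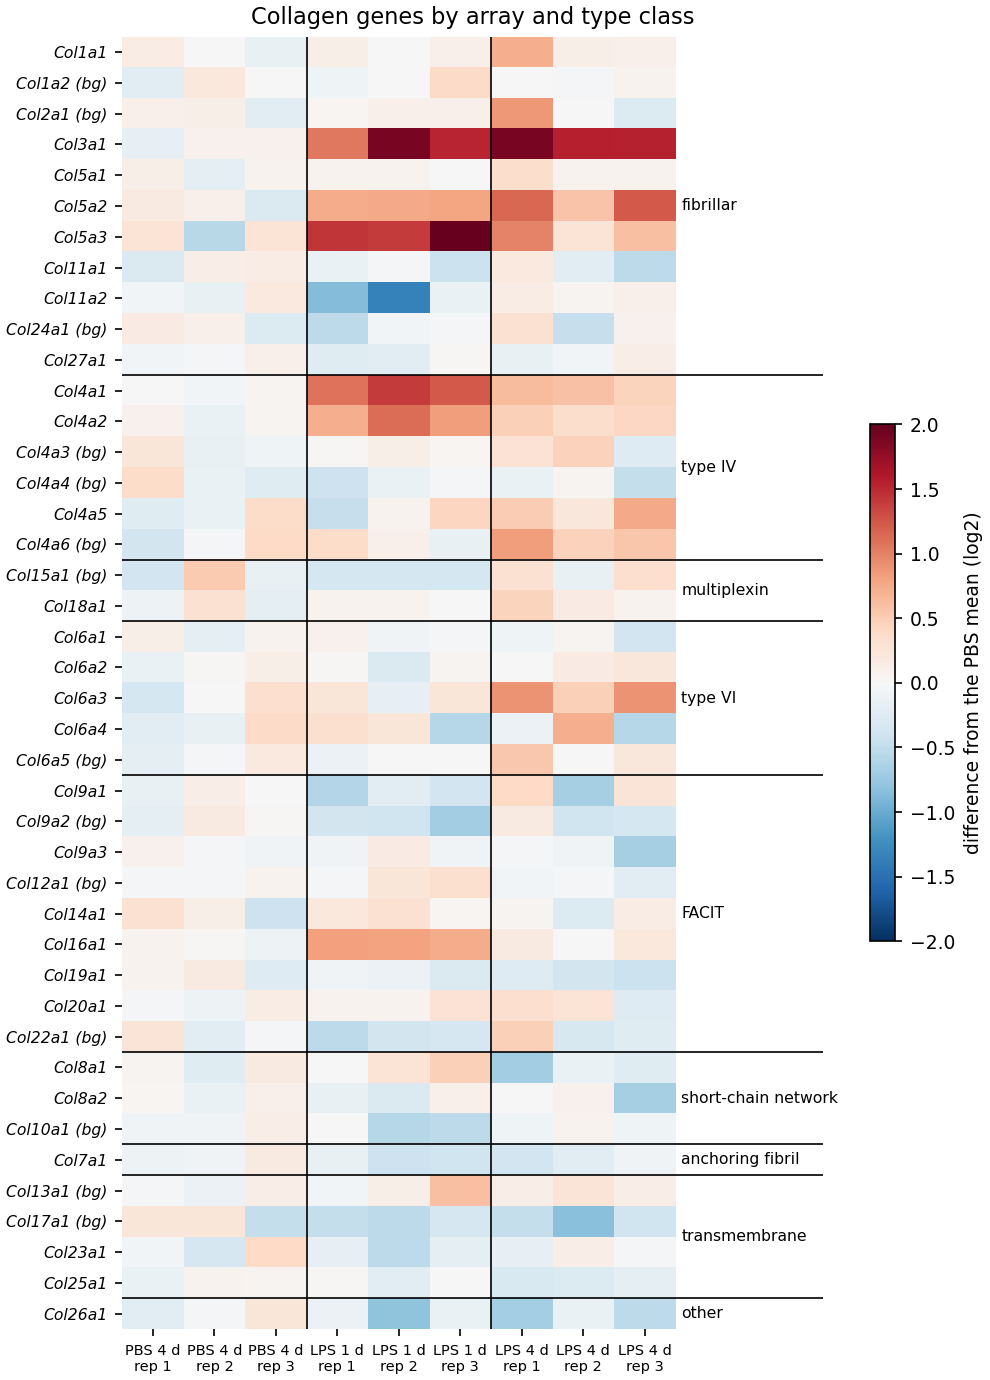
Difference of each of the 42 collagen genes (rows, by type class) on each of the 9 arrays (columns) from the mean of the PBS arrays, on a log2 colour scale from blue (lower) to red (higher), with bg marking the 14 genes at or below background in every group. Most rows are pale, and the deep red rows are Col3a1, Col5a2, Col5a3, Col4a1, Col4a2 and Col16a1.

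At 1 d, 5 of the 42 collagens (11.9%) were higher in LPS than in PBS tissue and 0 were lower. Of all genes, 3.86% were higher and 0.532% lower by the same rule. The type IV pair Col4a1 and Col4a2 rose 2.35-fold and 1.86-fold, the fibrillar genes Col3a1 and Col5a3 rose 2.81-fold and at least 2.36-fold, and Col16a1 rose 1.73-fold. Without adjustment, limma put 6 collagens higher and 5 lower at p under 0.05, beside 9.40% and 8.43% of all genes, and 3 of the 5 lower ones (Col10a1, Col17a1 and Col9a2) were at or below background in every group.

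At 4 d, 2 of the 42 (4.76%) were higher, Col3a1 and Col5a2, and 0 were lower, beside 4.21% and 0.205% of all genes. That share is close to the share of all genes. Without adjustment, 7 were higher and 3 lower, beside 10.6% and 7.07% of all genes, and Col4a6 among the former and Col17a1 among the latter were at or below background in every group. Between the LPS groups, 0 were higher and 2 lower at 4 d than at 1 d, Col4a1 and Col16a1, beside 1.84% and 1.37% of all genes, and without adjustment 4 were higher and 6 lower, beside 9.18% and 7.12% of all genes. Of these, Col15a1 and Col4a6 (higher) and Col12a1 (lower) were at or below background in every group.

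The type IV pair Col4a1 and Col4a2 had its highest values at 1 d. Col4a1 encodes the chain that contributes most to the basement membrane network. Its log2 expression was 6.90, 6.84 and 6.96 on the PBS arrays, 7.99, 8.29 and 8.13 on the LPS 1 d arrays and 7.53, 7.49 and 7.34 on the LPS 4 d arrays. The 3 groups did not overlap, with every 4 d array between the PBS and the 1 d arrays. The difference from PBS was 1.23 ± 0.10 (log2, SE; adjusted p = 0.000104) at 1 d and 0.55 ± 0.10 (adjusted p = 0.0145) at 4 d. The latter equals 1.47-fold and stayed under the fold limit, so it was not called. It was called with the mean of the probe sets of the gene (0.80, adjusted p = 0.00265) and without LPS 4 d replicate 3 (0.61, adjusted p = 0.025). From 1 d to 4 d Col4a1 fell by 0.68 ± 0.10 on the log2 scale (1.60-fold, adjusted p = 0.00736).

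Col4a1 had another probe set, whose mean log2 expression was 5.20 with PBS, 6.73 at 1 d and 6.25 at 4 d. By that probe set the differences from PBS were 1.52 (adjusted p = 0.000237) at 1 d and 1.05 (adjusted p = 0.00291) at 4 d, and both passed, as did 2.36% and 2.58% of all probe sets in the upward direction. The difference between the LPS groups was -0.48 (adjusted p = 0.155) and did not pass. The size of the residual elevation at 4 d thus differed between the probe sets of the same gene, while the elevation at 1 d was called with each.

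Col4a2 encodes the partner chain of Col4a1. Its log2 expression was 6.65, 6.43 and 6.63 with PBS, 7.30, 7.68 and 7.41 at 1 d and 7.04, 6.91 and 6.99 at 4 d. The groups again did not overlap, in the same order as for Col4a1. The rise at 1 d was 0.89 ± 0.11 (log2, SE; adjusted p = 0.00175). At 4 d the difference was 0.41 ± 0.11 (adjusted p = 0.0916), and between LPS groups it was -0.48 ± 0.11 (adjusted p = 0.0701), and neither passed. Among the other type IV genes only Col4a5, whose product forms basement membrane networks with other minor chains, exceeded background, with differences of 0.01 ± 0.24 at 1 d and 0.50 ± 0.24 (adjusted p = 0.361) at 4 d. Col4a3, Col4a4 and Col4a6 lay at or below background in every group.

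**Figure D2:**
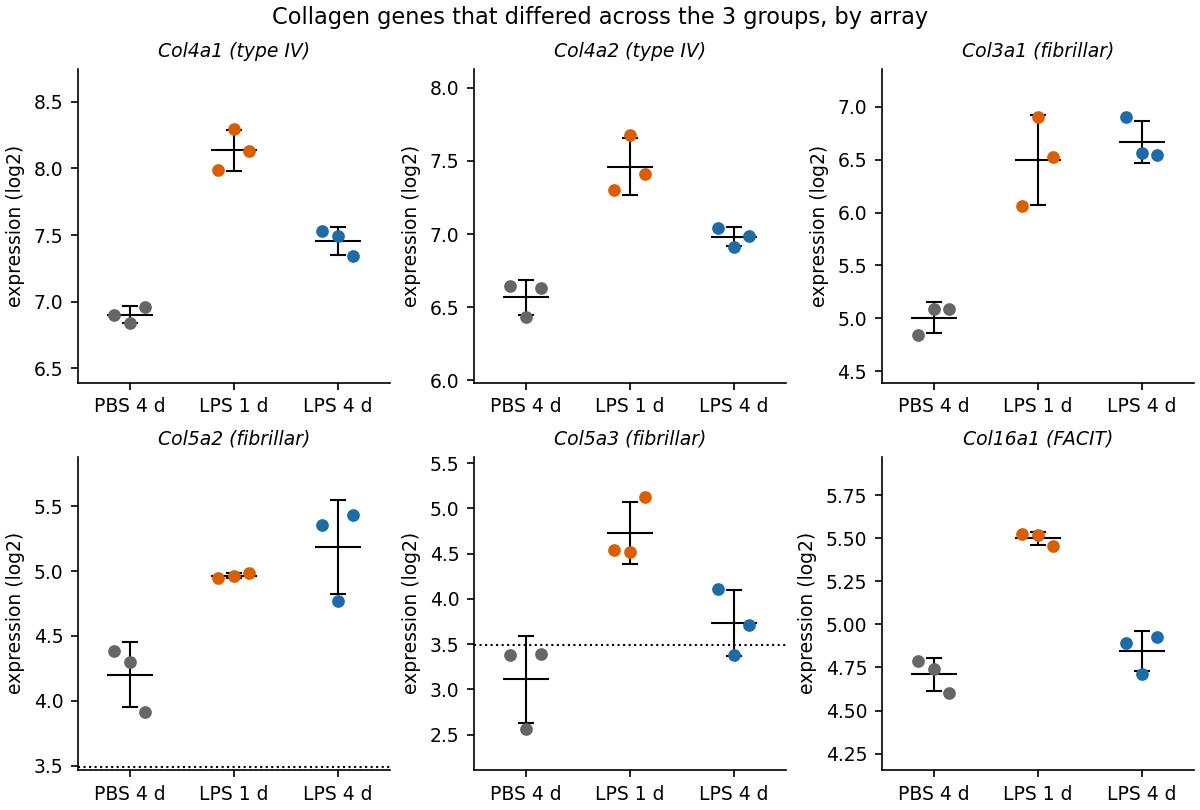
Log2 expression of the 6 collagens that differed across the groups, with each point an array (a pool of 3 mice), horizontal lines the group means and bars the SD (n = 3), and the dotted line, where in range, the background level of 3.49. Col4a1, Col4a2 and Col16a1 peak at 1 d, whereas Col3a1 is at 6.50 and 6.67 in the LPS groups against 5.01 with PBS, and the vertical axes differ between panels.

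Col3a1, the chain of type III collagen, which forms fine reticular fibrils in vessel walls and meninges, was the only collagen whose representative probe set was called against PBS at both times. Its log2 expression was 4.84, 5.09 and 5.09 with PBS, 6.06, 6.91 and 6.52 at 1 d and 6.90, 6.57 and 6.55 at 4 d. All 6 LPS arrays lay above all 3 PBS arrays, and the LPS groups overlapped. The differences were 1.49 ± 0.20 (log2, SE; adjusted p = 0.00262) at 1 d and 1.67 ± 0.20 (3.17-fold, adjusted p = 0.00153) at 4 d. Between 1 d and 4 d the difference was 0.17, with a 95% confidence interval of -0.28 to 0.63 (adjusted p = 0.776). Another probe set of Col3a1 lay at or below background in every group (means of 2.39, 2.99 and 2.58). With the mean of both probe sets the differences were 1.05 at 1 d and 0.93 at 4 d, and both still passed (adjusted p = 0.00486 and 0.0104).

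Col5a2 and Col5a3 encode chains of type V collagen, a minor fibrillar collagen that incorporates into and helps to nucleate the fibrils of the major types. Col5a2 had log2 expression of 4.39, 4.30 and 3.92 with PBS, 4.94, 4.96 and 4.99 at 1 d and 5.35, 4.77 and 5.43 at 4 d. Every LPS array was above every PBS array, and the LPS groups overlapped. The difference was 0.76 ± 0.18 (log2, SE; adjusted p = 0.0557) at 1 d, which did not pass, and 0.99 ± 0.18 (1.98-fold, adjusted p = 0.0168) at 4 d. The difference between these times was 0.22 (adjusted p = 0.668), so the effects at 1 d and 4 d were not shown to differ. Leaving out PBS replicate 3 took the 4 d difference to 0.84, which no longer passed (adjusted p = 0.0614). The same held for LPS 4 d replicate 1 (0.90, adjusted p = 0.0726) and for replicate 3 of that group (0.86, adjusted p = 0.0617). The unchanged 1 d difference passed without LPS 4 d replicate 2 (adjusted p = 0.0122), with the 2 groups fitted alone (0.0288), with probe sets at background left out (0.0365) and with 1 probe set per gene tested (0.0379). Over all settings tried, the 1 d difference ranged from 0.35 to 0.86 and its adjusted p from 0.0122 to 0.165. Another probe set of Col5a2 lay at or below background in every group and differed by -0.06 at 1 d and 0.32 at 4 d.

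Col5a3 measured 3.38, 2.56 and 3.39 (log2) with PBS, 4.54, 4.51 and 5.12 at 1 d and 4.11, 3.38 and 3.71 at 4 d. All PBS arrays were at or below background, all 1 d arrays were above it, and the 4 d arrays overlapped the PBS arrays. The measured difference at 1 d was 1.62 ± 0.27 (log2, SE; adjusted p = 0.0107), and against the background level it amounts to at least 2.36-fold. The difference was 0.62 ± 0.27 (adjusted p = 0.305) at 4 d and -0.99 ± 0.27 (adjusted p = 0.129) between LPS groups. Its other probe set was at or below background throughout, and the mean of both gave 0.84 at 1 d, which did not pass (adjusted p = 0.0602).

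The remaining fibrillar genes gave no call. Col1a1, a chain of type I collagen, the main fibrillar collagen of the body, had log2 means of 3.25, 3.33 and 3.57 in PBS, LPS 1 d and LPS 4 d. Its mean exceeded background at 4 d only, through replicate 1 at 3.98, while replicates 2 and 3 were below background at 3.37 and 3.36. Its differences were 0.08 (95% confidence interval -0.29 to 0.45) at 1 d and 0.32 (-0.05 to 0.69) at 4 d, which leaves room for a moderate rise. Col1a2, the partner chain, had 1 probe set by this annotation. That probe set lay at background, with means from 1.92 to 2.03, so Col1a2 was not measurable by it. Probe sets without a symbol were not assigned to genes and may include others for Col1a2. Col5a1, the remaining type V chain, differed by 0.05 at 1 d and 0.16 at 4 d (adjusted p = 0.89 and 0.53). Its other probe sets had the opposite sign, with -0.55 and -0.01 at 1 d and -0.40 and -0.44 at 4 d, and did not pass.

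The type XI chains, which are known from cartilage fibrils, and type XXVII differed less regularly. Col11a2 measured 3.96, 3.87 and 4.21 with PBS, 3.14, 2.67 and 3.88 at 1 d and 4.15, 4.07 and 4.12 at 4 d on the log2 scale. LPS 1 d replicate 3 stood apart from its group and overlapped the PBS arrays. The 1 d mean of 3.23 was below background, so the size of a fall was not measurable, and the measured difference of -0.78 ± 0.25 did not pass (adjusted p = 0.16). Col11a1 differed by -0.20 and -0.18 and Col27a1 by -0.14 and -0.03 at 1 d and 4 d, and neither passed. Another probe set of Col11a1, above background in all 3 groups, had every LPS array below every PBS array. It differed by -0.63 at 1 d and -0.43 at 4 d and did not pass (adjusted p = 0.066 and 0.204). The size of the difference in Col11a1 thus depended on the probe set.

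**Figure D3:**
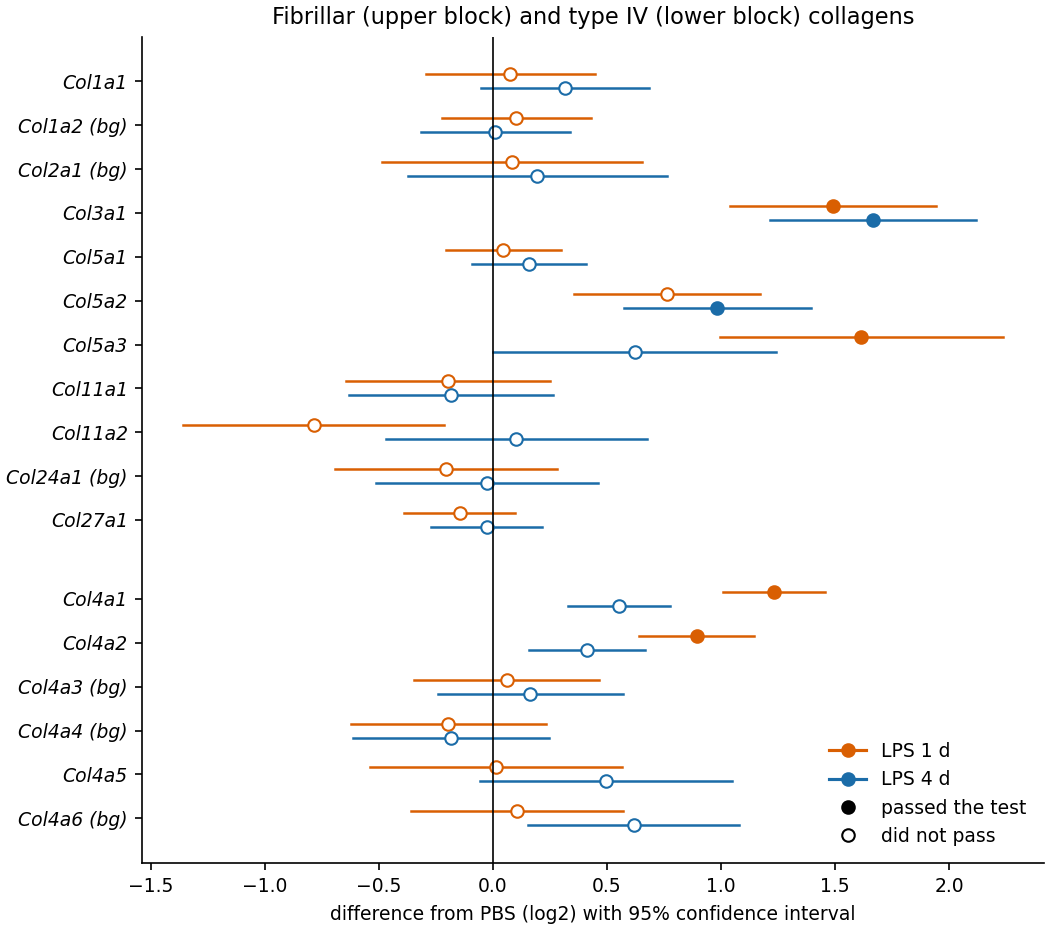
Differences from PBS (log2, horizontal axis) of the 11 fibrillar and 6 type IV genes at 1 d (orange) and 4 d (blue), with 95% confidence intervals from limma, filled points where the call was passed and bg where a gene was at or below background in every group. Col3a1 is filled at both times, Col4a1, Col4a2 and Col5a3 at 1 d, and Col5a2 at 4 d.

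Set side by side, the fibrillar and type IV classes each held 2 genes higher at 1 d (2 of 11 and 2 of 6). At 4 d the fibrillar class held 2 and the type IV class 0. Of all genes, 3.86% were higher at 1 d and 4.21% at 4 d. The type IV count at 4 d depended on the fold limit and the probe set. Col4a1 was at 1.47-fold (adjusted p = 0.0145), and its other probe set was called (log2 difference 1.05, adjusted p = 0.00291). The median log2 difference over the fibrillar genes was 0.08 at 1 d and 0.16 at 4 d, over the type IV genes 0.08 and 0.45, and over the 25 other collagens -0.06 and -0.03. The median over all genes was -0.03 and -0.02. The type IV medians rested on 3 genes at background, and with only the 3 above it the median was 0.89 at 1 d and 0.50 at 4 d. The classes were not tested against each other, because genes of a class are not replicates of a condition.

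Among the 25 other collagens the call was limited to Col16a1, a FACIT found at the surface of fibrils and near basement membranes. Its log2 expression was 4.79, 4.74 and 4.60 with PBS, 5.52, 5.52 and 5.45 at 1 d and 4.89, 4.71 and 4.93 at 4 d. The 1 d arrays were separate from all others, and the 4 d arrays overlapped the PBS arrays. It rose by 0.79 ± 0.09 (log2, SE; adjusted p = 0.000871) at 1 d, differed from PBS by 0.13 ± 0.09 (adjusted p = 0.496) at 4 d and fell by 0.65 ± 0.09 from 1 d to 4 d (1.57-fold, adjusted p = 0.00493). This was the narrowest spread among the called collagens at 1 d, with an SD of 0.04 (n = 3).

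The other 24 gave differences from -0.48 to 0.25 at 1 d and from -0.57 to 0.76 at 4 d. Col6a3, the long chain of type VI collagen, which links cells to the surrounding matrix, was at the upper end. It measured 4.15, 4.52 and 4.85 with PBS, 4.75, 4.34 and 4.75 at 1 d and 5.41, 4.98 and 5.41 at 4 d (log2). All 4 d arrays were above the other 6, yet the difference from PBS of 0.76 ± 0.20 did not pass (adjusted p = 0.0803). Its partner chains Col6a1 and Col6a2 differed by -0.14 and 0.13 at 4 d. The genes whose probe sets had the highest mean signal besides these, Col25a1 (a membrane-spanning collagen of neurons), Col19a1, Col9a3 and Col8a1, differed from PBS by -0.06 and -0.25, -0.16 and -0.35, 0.01 and -0.26, and 0.25 and -0.35 at 1 d and 4 d, with adjusted p from 0.188 upward. Col18a1, the basement membrane multiplexin that yields endostatin, differed by 0.04 and 0.23.

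A minority of the genes of collagen processing moved, and several lists held 1 call or 0 at a given time. Of 69 genes in 8 lists (enzymes, chaperones, receptors, proteinases and matrix partners), LPS raised 9 and lowered 2 at 1 d and raised 13 and lowered 0 at 4 d, while 4 rose and 2 fell from 1 d to 4 d, beside the shares of all genes given above. The median log2 difference over the 69 was 0.08 at 1 d and 0.18 at 4 d. The lists held no collagen gene.

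Inside the cell, 1 of 7 chaperone and export genes rose at 1 d. This was Serpinh1, which encodes HSP47, the chaperone that binds the procollagen triple helix. Its log2 expression was 6.65, 6.70 and 6.76 with PBS, 7.87, 7.68 and 7.91 at 1 d and 7.33, 7.25 and 7.16 at 4 d. The groups did not overlap and stood in the order seen for Col4a1, with a rise of 1.12 ± 0.09 (adjusted p = 9.61e-05) at 1 d and a difference of 0.54 (adjusted p = 0.00888), under the fold limit, at 4 d. Of 14 hydroxylase and glycosyltransferase genes, 0 passed at 1 d and 1 at 4 d, Plod1, a lysyl hydroxylase, with a difference of 0.99 ± 0.11 (adjusted p = 0.000982).

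Outside the cell, the lysyl oxidases, which cross-link collagen, held 1 gene higher at 1 d and 2 at 4 d of 5. Lox rose from a log2 mean of 3.52 ± 0.28 (SD, n = 3) with PBS to 5.27 ± 0.34 at 1 d and 5.49 ± 0.40 at 4 d (adjusted p = 0.00292 and 0.00164). Loxl3 rose by 0.80 at 4 d (adjusted p = 0.0351). Of 6 procollagen proteinase and enhancer genes, Pcolce, an enhancer of C-propeptide removal, rose by 0.64 at 4 d (adjusted p = 0.0348).

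Of 7 proteinases that cleave collagen, 3 rose at 1 d and 2 at 4 d. Mmp8, the neutrophil collagenase, was at or below background with PBS and at 4 d and measured 3.50, 5.70 and 4.90 at 1 d, at least 2.31-fold above the background level (adjusted p = 0.0183 against PBS and 0.0477 against 4 d). Mmp9, a gelatinase, had a PBS mean of 3.48, just under background with 2 of 3 arrays above it, and rose at least 3.79-fold at 1 d (measured log2 difference 1.93 ± 0.32, SE; adjusted p = 0.00955). It differed by 0.70 (adjusted p = 0.327) at 4 d and by -1.23 (adjusted p = 0.105) between LPS groups. Mmp2, the other gelatinase, measured 3.23, 3.19 and 3.86 with PBS, 3.31, 3.82 and 3.76 at 1 d and 5.21, 4.89 and 5.01 at 4 d, where it was higher than at 1 d by 1.41 ± 0.20 (log2, SE; adjusted p = 0.00694). Its PBS mean of 3.43 was below background with 1 of 3 arrays above it, so the rise against PBS is at least 2.92-fold (measured log2 difference 1.61 ± 0.20, adjusted p = 0.00198). Mmp14, a membrane-anchored collagenase that activates the Mmp2 product, rose by 1.21 and 1.62 at 1 d and 4 d (adjusted p = 0.00811 and 0.00163).

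Of 9 collagen receptors, 0 passed at 1 d and 2 rose at 4 d. Lair1, an inhibitory collagen receptor of leukocytes, rose by 1.26 ± 0.10 (adjusted p = 9.89e-05) against PBS and 1.03 ± 0.10 (adjusted p = 0.000799) against 1 d. Itgb1, the shared beta chain of collagen-binding integrins, rose by 0.60 ± 0.13 (adjusted p = 0.0397). Ddr2, a receptor tyrosine kinase for fibrillar collagen, differed by 0.53 and did not pass.

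The matrix partners also held calls. Of 11 laminin, nidogen and proteoglycan genes of basement membranes, Nid1, which links laminin to type IV collagen, rose by 1.01 ± 0.11 at 1 d and 0.94 ± 0.11 at 4 d (adjusted p = 0.000825 and 0.00151). Lamc1 rose by 0.59 (adjusted p = 0.00835) and Lama2 fell by 0.66 (adjusted p = 0.0454) at 1 d, and Hspg2, the gene of perlecan, differed by 0.23 and 0.08. Of 10 fibril-associated genes, LPS raised 2 and lowered 1 at 1 d and raised 4 at 4 d. Dcn, a small proteoglycan that coats fibrils, measured 6.86, 6.70 and 6.81 with PBS, 8.83, 9.54 and 9.21 at 1 d and 8.27, 8.16 and 8.29 at 4 d, higher by 2.40 and 1.45 (adjusted p = 3.25e-05 and 0.000776). Fn1, fibronectin, rose by 0.81 and 1.36 (adjusted p = 0.0133 and 0.000638). Bgn and Lum rose by 0.90 and 0.72 at 4 d, and Fmod fell by 0.74 at 1 d and was higher by 1.10 at 4 d than at 1 d.

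**Figure D4:**
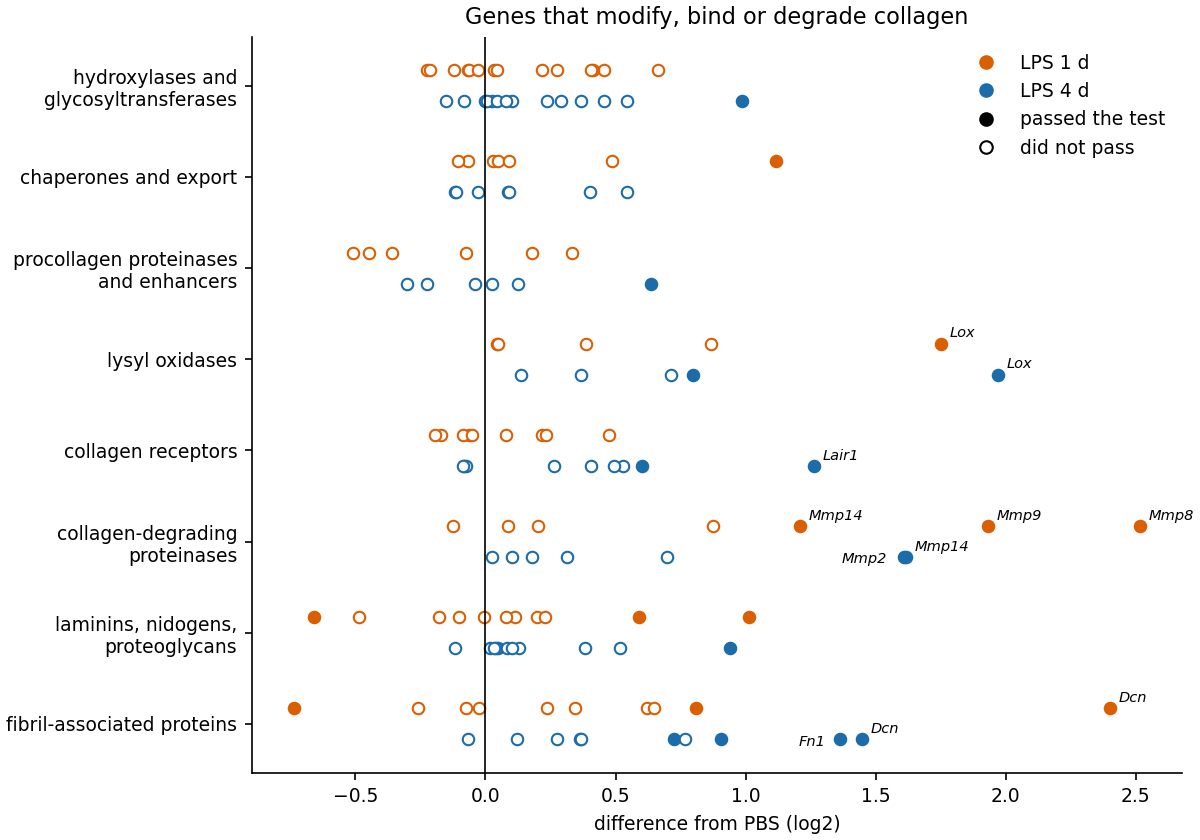
Log2 differences from PBS (horizontal axis) at 1 d (orange) and 4 d (blue) of 69 genes in 8 lists of collagen processing, binding and degradation, with each point a gene, filled where the call was passed, and names given for calls above 1.2. Most genes lie near 0, and Mmp8, Dcn and Mmp9 at 1 d and Lox at 4 d lie farthest to the right.

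In bulk tissue a change in the number of collagen-producing cells and a change in RNA per cell cannot be told apart. Marker lists of the cell types that make collagen therefore stand beside the collagen values. Of 12 fibroblast and meningeal markers, 2 were higher at 1 d (Dcn and Aldh1a2) and 3 at 4 d (Dcn, Lum and Aldh1a2), and their summed linear signal was 615 to 624 with PBS, 938 to 1349 at 1 d and 886 to 1063 at 4 d. Dcn and Lum are also in the list of matrix partners. Dcn alone had a mean linear signal of 110.8 with PBS, 596.1 at 1 d and 302.3 at 4 d. It thus made up much of the rise in the fibroblast sums. The median log2 difference from PBS over the 12 markers was 0.07 at 1 d and 0.30 at 4 d. Dpt was at or below background in every group, as was Pdgfra. Of 8 pericyte and smooth muscle markers, 0 were called at 1 d and 1 was higher at 4 d (Notch3), with sums of 956 to 1010, 763 to 805 and 1290 to 1306 in PBS, LPS 1 d and LPS 4 d, and with Anpep at background. The endothelial list had 4 of 11 markers called higher with LPS at each time, with sums of 813 to 827, 780 to 866 and 1095 to 1309. The fibroblast sums were above those of PBS at both times, and the endothelial sums at 1 d overlapped those of PBS. The pericyte sums were lowest at 1 d, yet the median log2 difference over the 8 markers was 0.0015 at 1 d and 0.33 at 4 d. Over the 11 endothelial markers the median was 0.14 and 0.57. The part of these cell types in the collagen results was not tested.

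Choroid plexus and macrophage markers differed too. Of 10 choroid plexus markers, 1 was lower at 1 d and 1 at 4 d, with sums of 3331 to 4655 with PBS, 3644 to 5079 at 1 d and 1613 to 3143 at 4 d. The macrophage and microglia list had 4 of its 6 markers called higher at 1 d and all 6 at 4 d. All 6 neuronal and 5 striatal projection neuron markers were above background in every group and 0 of them were called against PBS. Of 6 thalamic markers, 2 (Tcf7l2 and Calb2) were lower at 4 d, with sums of 1235 to 1406 with PBS, 1080 to 1214 at 1 d and 741 to 1119 at 4 d. The oligodendrocyte list had 2 of 6 markers lower at 1 d (Cnp and Opalin), and the astrocyte list had 2 of 6 higher at each time (Aqp4 and Gfap). Of 6 oligodendrocyte precursor markers, Gpr17 was higher at 4 d. The part of these differences in the collagen values was not tested. Array medians were 4.32 to 4.37 (log2), and the lowest correlation between arrays was 0.992 within groups and 0.981 between them.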

How the data were processed

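Gene expression was measured on 9 Affymetrix HT MG-430 PM arrays. Per the study's methods the authors normalised the arrays by RMA in Affymetrix Expression Console (version not given in the sources used here), and the deposited values are log2 expression per probe set. Excluding 104 controls, 45037 probe sets entered the tests. Of these, 28898 had 1 gene symbol, 551 several and 15588 none, and the last 2 kinds were not named. Among probe sets with 1 symbol, 28689 matched by Entrez identifier and 0 symbols changed.

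All arrays entered 1 limma fit (version 3.58.1, R 4.3.3) with a mean per group, empirical Bayes moderation (6 residual and 3.02 prior degrees of freedom) and no replicate block. P-values were adjusted over all probe sets by Benjamini-Hochberg. Calls followed the thresholds of the study, a 1.5-fold change or more with adjusted p under 0.05, and the F-test used adjusted p alone. The script was tested on simulated data. An exact permutation test of 3 against 3 arrays cannot go below p = 0.1 and was not used. Signal was set against 23 nonspecific control probe sets, and the number of arrays limits the precision. A fold given as at least a value is the mean of the brighter group over the background level. It leaves out the spread between arrays and is no confidence limit.

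All collagens were accounted for, those that passed a test and the fibrillar and type IV genes above background were named, and up to 4 called genes per list. The members and lists were chosen with earlier results of these data known. Alternatives were another moderation, fits on 2 groups, a replicate block, other fold limits, other uses of probe sets, repeated normalisation, and each array left out. Promoter sequence and positions came from RefSeq (GRCm38.p6).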

Additional observations from a re-analysis of the deposited data

Results flagged for a closer look

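Col4a1 differed between the LPS groups, with a log2 difference of -0.68 (adjusted p = 0.00736) at 4 d against 1 d. All 3 arrays at 4 d lay below all 3 at 1 d. Col16a1 differed likewise, by -0.65 (adjusted p = 0.00493), also with no overlap. With no PBS array at 1 d, a change in the LPS effect cannot be told apart from a difference in time after surgery.

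The Col4a1 probe set that did not represent the gene was higher than PBS by 1.52 (log2) at 1 d and by 1.05 at 4 d (adjusted p = 0.000237 and 0.00291). Of the 26 collagen probe sets that represented no gene, it was the only one called at either time, while 2.36% of all probe sets were called higher at 1 d and 2.58% at 4 d.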

How the results depend on the processing

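Genes at or below background have no measurable fall. At 1 d the 5 higher collagens became 3 at a fold limit of 2, and leaving out arrays gave 0 to 1 lower (Col17a1, at background in every group, without PBS replicate 3, and Col11a2, below background at 1 d, without LPS 1 d replicate 3). At 4 d the 2 higher became 1 with ordinary tests, with the 2 groups fitted alone and at a fold limit of 2, and 1 to 2 with arrays left out, with 0 to 1 lower (Col17a1 without PBS replicate 3), but became 3 with no fold limit and with the mean of probe sets, where Col4a1 was added. Between LPS groups 0 to 1 were higher with arrays left out (Col11a2 without LPS 1 d replicate 3, Col9a1 without LPS 4 d replicate 2), and the 2 lower became 0 at a fold limit of 2 and 1 with the mean of a gene's probe sets, where Col4a1 was -0.58. Col3a1 between LPS groups turned to -0.12 with the mean of probe sets and -0.044 without LPS 1 d replicate 1, up to 0.38 without LPS 1 d replicate 2. Col5a3 at 1 d did not pass with ordinary tests (adjusted p = 0.0683). With an intensity trend and robust moderation, Col6a3 passed at 4 d (adjusted p = 0.0286), as did Col5a2 at 1 d (0.0191) and Col5a3 between LPS groups (-0.99, 0.0421). The cause was not tested.

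With arrays left out, the type IV median ranged from 0.036 to 0.25 at 1 d, 0.39 to 0.51 at 4 d and -0.078 to 0.24 between, the fibrillar median at 1 d from 0.0029 to 0.11 and that of the other collagens between LPS groups from -0.084 to 0.14. The type IV median was 0.89 at 1 d and -0.48 between LPS groups with genes above background alone, 0.32 at 4 d and 0.14 between with types XV and XVIII added, and 0.39 and -0.056 with the mean of probe sets.

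Of the 69 processing genes, the 9 higher at 1 d became 14 with an intensity trend and 5 with ordinary tests. The 2 lower became 0 with ordinary tests and at a fold limit of 2, 1 with the 2 groups alone, and 0 to 2 with arrays left out. The 13 higher at 4 d became 6 at a fold limit of 2. Between LPS groups the 4 higher became 2 with ordinary tests, and the 2 lower became 0 with ordinary tests and with the 2 groups alone, 1 at a fold limit of 2 and above background, and 0 to 2 with arrays left out.

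Correlations between the deviations of same-numbered arrays were -0.03 to 0.02, and 5 of 9 arrays were closest to their own number. With so few arrays these values cannot settle whether the numbers pair the pools, which were fitted as unpaired. With the number as a replicate block 5 collagens were higher at 1 d, 2 higher at 4 d and 2 lower between LPS groups, as without it, 5 passed the F-test, and the processing genes had 1 lower at 1 d and 1 lower between LPS groups.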
